A study of Mus musculus with 33 samples.

Results

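Iron handling was followed through 6 genes, Trf, Tfrc, Fth1, Ftl1, Slc40a1 and Cp, in single cells of the mouse hippocampal neurogenic niche. The genes were chosen by symbol, and all 6 were found among the 18853 genes of the deposited tables. Cells came from C57BL/6 mice labelled wild-type, were sorted as live and negative for GluR1 and Cd24 after neurons had been depleted, and were read by SORT-seq, a plate method that tags the 3′ end of each transcript with a molecular identifier (UMI). The niche data came from 31 libraries in 5 numbered experiments and gave 1285 cells (wells with at least 1000 transcripts). Beside them stood 1 library of mice older than 12 months (138 cells) and 1 of cells sorted from Nestin-GFP mice as positive for GFP (315 cells), whose genotype label also reads wild-type. Nes, the gene behind that reporter, is active in neural stem cells and progenitors. For the niche and Nestin-GFP libraries no age was found in the labels, nor a number of mice per experiment. The experiment was therefore taken as the replicate. P-values rest on the spread between experiments, which may be technical and which the fits estimate by sharing it over genes.

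Iron enters most cells bound to transferrin, the protein made from Trf, through the transferrin receptor made from Tfrc. Inside the cell it is stored in ferritin, a shell of heavy chains (Fth1), which oxidise iron, and light chains (Ftl1), which help to lay it down as mineral. Ferroportin (Slc40a1) is the only known exporter of iron from vertebrate cells, and ceruloplasmin (Cp), a copper oxidase, oxidises the iron that leaves so that transferrin can bind it. In the brain, oligodendrocytes are known for a high iron content, and the endothelium of brain vessels takes up transferrin from blood.

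The members differ in a feature that the choice by symbol did not use, the iron-responsive element. This short hairpin is bound by iron regulatory proteins when iron is scarce, which blocks translation from a 5′ UTR and protects the transcript from decay in a 3′ UTR. The transcripts of GENCODE M21 (mm10) were searched on the sense strand for a C, any 5 bases, CAGTGN and 5 more bases that pair with the first 5 (G-T pairs allowed). In 5′ UTRs the motif was found in 31 of 21181 genes (0.146%), 3 of them members, and in 3′ UTRs in 144 of 21173 genes (0.680%), 1 of them a member. The matches are printed because they divide the members by the kind of control their transcripts can carry. Capitals mark the loop.
Fth1 5′ UTR: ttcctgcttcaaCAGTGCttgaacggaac
Ftl1 5′ UTR: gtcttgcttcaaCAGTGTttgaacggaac
Slc40a1 5′ UTR: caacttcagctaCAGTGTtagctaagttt
Tfrc 3′ UTR, element 1: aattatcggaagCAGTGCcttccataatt
Tfrc 3′ UTR, element 2: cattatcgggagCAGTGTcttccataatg
Tfrc 3′ UTR, element 3: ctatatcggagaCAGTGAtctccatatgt
Tfrc 3′ UTR, element 4: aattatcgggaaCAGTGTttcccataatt
They lie in single exons at chr19:9982732-9982760 (Fth1, plus strand), chr7:45459779-45459807 (Ftl1, minus strand), chr1:45925465-45925493 (Slc40a1, minus strand) and, for Tfrc on the plus strand, chr16:32631219-32631247, chr16:32631598-32631626, chr16:32631663-32631691 and chr16:32631710-32631738. For Trf (chr9:103204001-103230444, minus strand) and Cp (chr3:19957054-20009145, plus strand) the search gave no match. The data count transcripts, so control of translation through a 5′ element was not measured.

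Cells were sorted into classes by clustering on a random share of their UMIs, with the 6 members and the other iron and haem genes left out, and levels and tests were taken from the rest. A class is called "-like" because its name rests on markers. The classes used were astrocyte-like (225 niche cells), oligodendrocyte precursor-like (263), mature oligodendrocyte-like (66), microglia-like (296), neuroblast-like (162), proliferating progenitor-like (50) and endothelial-like cells (27), and a cluster led by Hopx (42 niche cells). The Hopx-led cluster took its stem cell-like name in the second round of clustering, but 3 astrocyte markers and 1 stem cell marker were among its top 10 genes, so it is called by its leading gene here. Levels are CPM, the counts of a gene scaled by all counts of a class within an experiment, given where that experiment held at least 5 cells of the class. Counts of 3′ ends do not grow with transcript length, though reads shared with gene copies can still bear on the level of a gene. Experiments differed in depth, with a median of 1943 (experiment 5) to 12392 transcripts per cell (experiment 4). None of 1738 cells held the same counts as another.

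Among the 8 classes seen in at least 2 niche experiments, mature oligodendrocyte-like cells carried the most Trf and Fth1, microglia-like cells the most Ftl1 and the next most Trf and Fth1, and endothelial-like cells the most Tfrc and Slc40a1. Cp was highest in precursor-like cells. All orders of classes given here are among these 8, and classes found in 1 experiment each are described apart. Together the 6 genes made up 1.76% of all transcripts in mature oligodendrocyte-like cells (1.63% to 1.85% in 3 experiments) and 0.624% in microglia-like cells (0.525% to 0.912% in 5). The mean was 0.509% in endothelial-like cells (2 experiments) and between 0.138% and 0.202% in the other 5 of these classes. In the classes seen in 1 experiment it was 0.695% (fibroblast-like), 0.606% (blood cells) and 0.317% (mural-like). In mature oligodendrocyte-like cells Fth1 ranked 6 and Trf 9 among 10140 genes with a count.

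**Figure D1:**
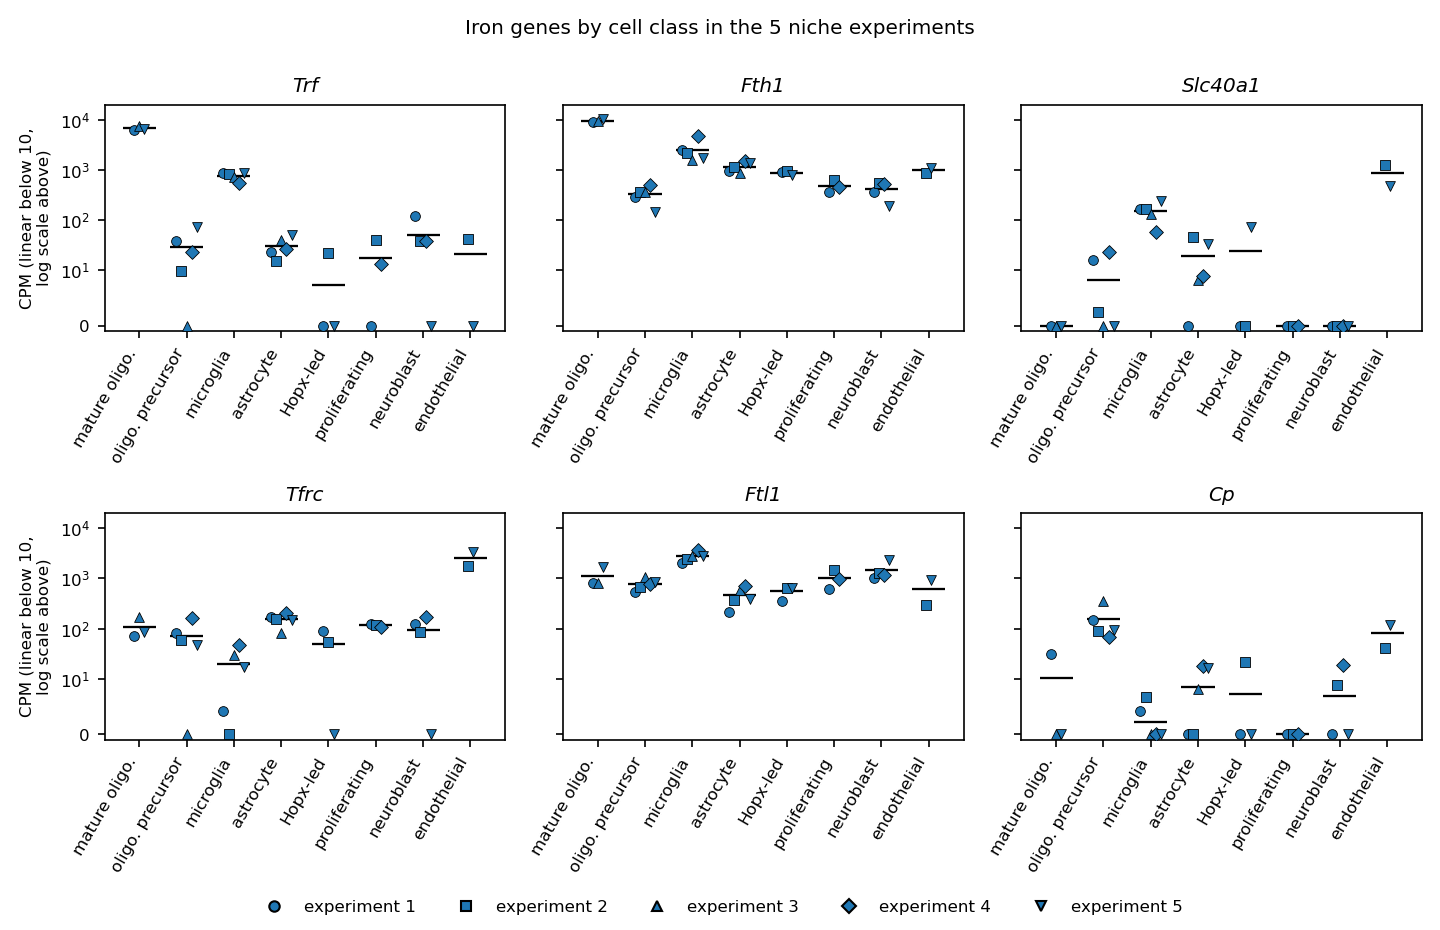
Level of each gene in CPM (linear below 10, log scale above) by cell class; each point is 1 niche experiment with at least 5 cells of the class and the bar is the mean. The 3 points of mature oligodendrocyte-like cells lie between 6345 and 7599 CPM for Trf, where the microglia-like cells lie between 552 and 854.

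Differences between classes were tested with edgeR's quasi-likelihood test in 1 fit over all classes with the experiment as a block, over 8172 genes, at a Benjamini-Hochberg adjusted p under 0.05. Log2 fold changes are given with standard errors, taken as the fold change divided by the square root of the test's F statistic. The fit shares its estimate of spread over genes and classes, so a p-value does not measure a gene's own spread. Between mature oligodendrocyte-like and precursor-like cells 2 members were higher and 1 lower, where 16.8% of all genes were called (7.31% higher, 9.46% lower). Against microglia-like cells, mature oligodendrocyte-like cells had 3 members higher and 2 lower (25.5% of all genes called, 11.7% higher and 13.8% lower), and microglia-like against astrocyte-like cells had 4 higher and 1 lower (36.0% of all genes, 16.5% higher and 19.5% lower). Precursor-like cells had 1 member higher and 2 lower than astrocyte-like cells (19.1% of all genes, 8.32% higher and 10.8% lower). Neuroblast-like cells had 0 higher and 2 lower (24.9%, 8.90% higher and 16% lower), and endothelial-like cells 2 higher and 0 lower (11.6%, 4.20% higher and 7.43% lower). The Hopx-led cluster did not pass the test for any member against astrocyte-like cells, where 2.04% of all genes were called (0.428% higher, 1.62% lower). For Tfrc in that pair the unadjusted edgeR p was 0.0266, and no member was called with DESeq2. Fitted fold changes use TMM scaling and can differ from the ratio of mean CPM.

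**Figure D2:**
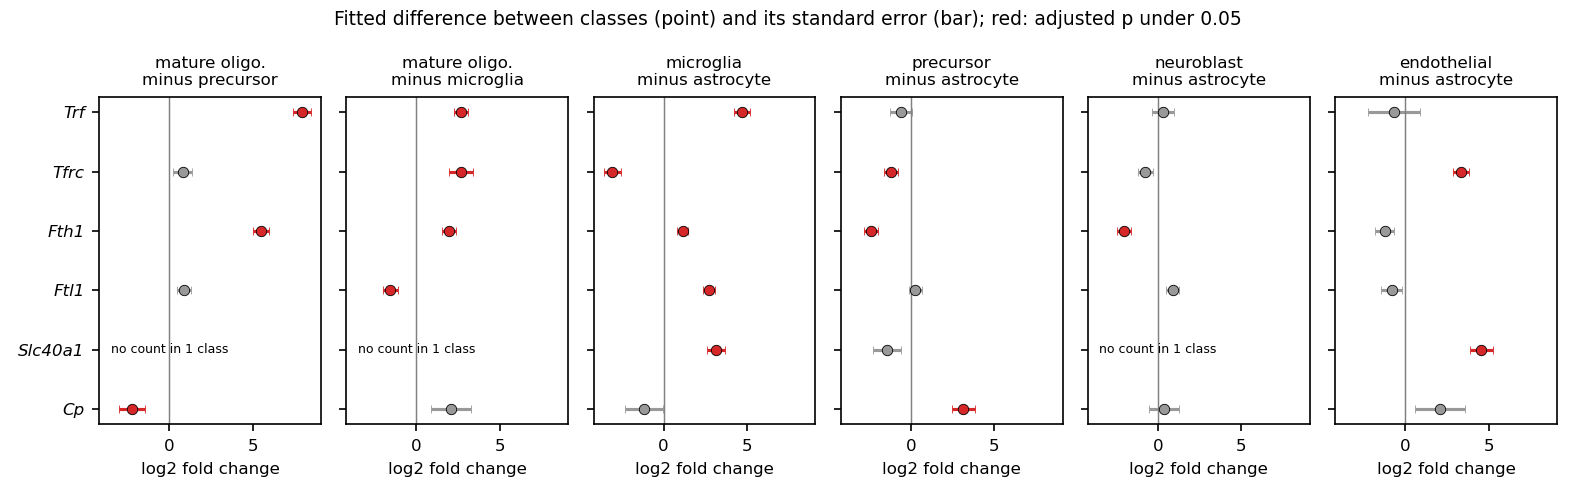
Fitted log2 fold change of each gene between 2 classes (point) with its standard error (bar), 1 panel per comparison; red points have an edgeR adjusted p under 0.05, and a gene with no count in 1 class is not drawn. Trf lies at 7.95 in the first panel and Fth1 at 5.50.

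Trf, the iron carrier, had the largest fitted difference of the 6 members between mature and precursor cells of the oligodendrocyte lineage. It stood at 6345, 7599 and 6605 CPM in mature oligodendrocyte-like cells of experiments 1, 3 and 5. In precursor-like cells it stood at 37.7, 9.83, 0, 22.9 and 71.9 CPM in experiments 1 to 5, on 20 counts in all. Every mature value was above every precursor value, with a log2 fold change of 7.95 ± 0.55 (edgeR adjusted p = 1.9e-43). Over 17 alternative settings this value ran from 6.07 to 8.70, all called.

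Microglia-like cells had the next highest Trf among the 8 classes. The 5 experiments gave 854, 816, 726, 552 and 853 CPM, against 22.7, 15.4, 40.8, 26.7 and 49.2 CPM in astrocyte-like cells. The groups did not overlap, and the log2 fold change was 4.70 ± 0.48 (edgeR adjusted p = 7.7e-21). Mature oligodendrocyte-like cells in turn were above microglia-like cells by a log2 fold change of 2.68 ± 0.42 (edgeR adjusted p = 5.4e-09). Trf in neuroblast-like (0 to 121 CPM), precursor-like, endothelial-like (0 and 41.6 CPM), proliferating (0 to 39.9 CPM) and Hopx-led cells (0 to 22 CPM) overlapped with its level in astrocyte-like cells.

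RNA of oligodendrocytes carried into other wells would bring their markers along, so Trf was set beside the summed markers of mature oligodendrocytes, such as the myelin gene Mbp. These markers were at 174 to 435 CPM in microglia-like cells and at 46100 to 52749 CPM in mature oligodendrocyte-like cells. In mature oligodendrocyte-like cells there were 0.125 to 0.165 Trf counts per marker count. Microglia-like cells had 1.90 to 3.18, above every value of mature oligodendrocyte-like cells. Astrocyte-like cells had 0.0294 to 0.0667 and precursor-like cells 0 to 0.0212, so for these 2 classes the ratio was below that of mature oligodendrocyte-like cells. The part of such RNA in the Trf of these classes was not tested.

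**Figure D3:**
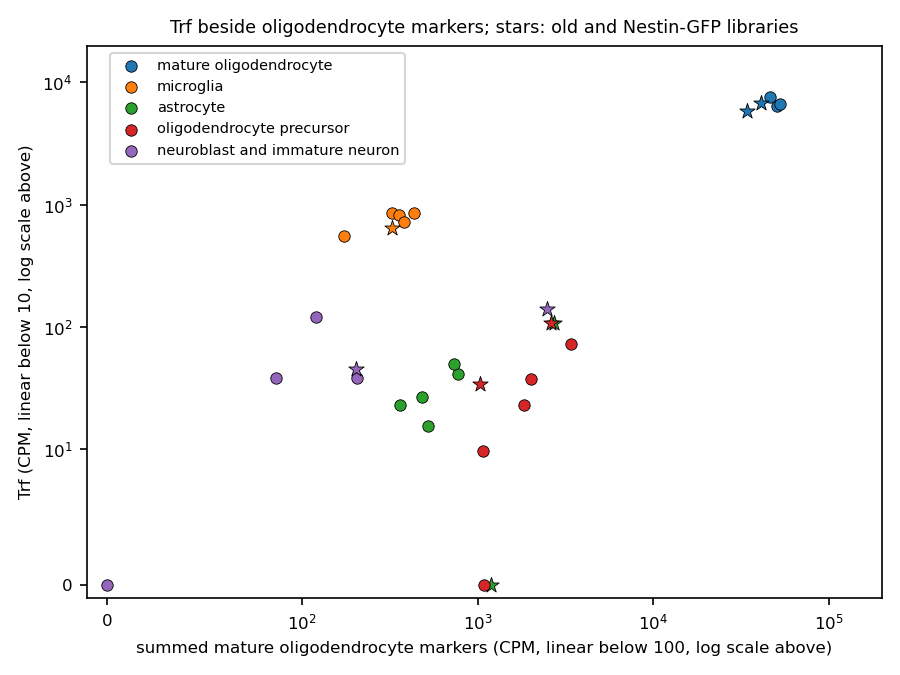
Trf (CPM, linear below 10, log scale above) against the summed markers of mature oligodendrocytes (CPM, linear below 100, log scale above); each circle is 1 class in 1 niche experiment and stars are the old and Nestin-GFP libraries. The microglia-like points lie at 552 to 854 CPM of Trf with 174 to 435 CPM of markers, the mature oligodendrocyte-like ones at 46100 to 52749 CPM of markers.

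Cell by cell, Trf was nearly universal in mature oligodendrocyte-like cells. After each cell was thinned to 1000 UMIs, 65 of 66 niche cells held a Trf UMI (98.5%, exact 95% interval 91.8% to 100.0%; all cells without thinning). In microglia-like cells the share was 143 of 296 (48.3%, 42.5% to 54.2%; 83.4% without thinning). It was 2.69% in astrocyte-like (9.33% without thinning), 2.66% in precursor-like (10.6%) and 4.32% in neuroblast-like cells (24.1%), whose median depths were 2306, 5320 and 9308 transcripts. These intervals, like those for the thinned shares of other members below, treat cells as independent and leave out the spread between experiments. Per 10000 transcripts the median mature oligodendrocyte-like cell of the niche had 64.8 from Trf, the tenth percentile was 38.4 and the ninetieth 101, against a median of 6.93 in microglia-like cells. The correction for UMI saturation had added 14.6% to Trf in these oligodendrocyte-like cells and 1.14% in microglia-like cells, and raw UMI numbers changed no call of Trf.

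Tfrc, the receptor that takes up transferrin, was highest in endothelial-like cells, the lining of vessels. Endothelial-like cells held 1734 CPM in experiment 2 and 3324 in experiment 5. Astrocyte-like cells held 171, 154, 81.7, 206 and 148 CPM in experiments 1 to 5. The endothelial values were above all of these, with a log2 fold change of 3.36 ± 0.48 (edgeR adjusted p = 3.2e-10), on 69.7 counts from 22 cells in the 2 experiments. It was called in all 17 alternatives; those that leave out experiment 2 or 5 rest on 1 endothelial sum, which the fit assumes to vary like the other classes. Single endothelial-like cells varied, from a median of 3.31 to a ninetieth percentile of 50 per 10000 transcripts, and 13 of 27 held a Tfrc UMI after thinning (48.1%, 28.7% to 68.1%; 63.0% without). In the old library 6 endothelial-like cells gave 244 CPM and in the Nestin-GFP library 14 gave 547, on 2 and 9 counts, both under the 2 niche values. Endothelial markers were lower there too (17093 and 23063 CPM, against 30702 and 45247 in the niche). Microglia markers stood at 3782 CPM in the old cells (829 and 1082 in the niche), and mature oligodendrocyte markers at 4498 CPM in the Nestin-GFP cells (208 and 237). The part of these markers in the lower Tfrc was not tested, nor was the difference itself.

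Of the 8 classes, Tfrc was lowest in microglia-like cells, at 4.29, 0, 29.3, 48.1 and 17.4 CPM. This was below every astrocyte-like value (log2 fold change -3.07 ± 0.53, edgeR adjusted p = 7.2e-08). Mature oligodendrocyte-like cells stood at 70.2, 168 and 84.3 CPM, above microglia-like cells by a log2 fold change of 2.67 ± 0.71 (edgeR adjusted p = 0.00108) and overlapping with precursor-like cells (0 to 162 CPM, edgeR adjusted p = 0.426). Precursor-like cells were called lower than astrocyte-like cells (log2 fold change -1.2 ± 0.42, edgeR adjusted p = 0.0266), with overlapping groups. That call held in 9 of 17 alternatives (adjusted p = 0.000498 to 0.470) and was lost without experiment 1, 2 or 5.

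Fth1, the ferritin heavy chain, followed the order mature oligodendrocyte-like, microglia-like, then astrocyte-like cells, with no overlap at either step. The mature oligodendrocyte-like cells held 9036, 9419 and 10103 CPM in experiments 1, 3 and 5. Precursor-like cells, the lowest of the 8 classes, held 291, 361, 362, 490 and 144 CPM. The log2 fold change between them was 5.50 ± 0.46 (edgeR adjusted p = 4.5e-30), a fitted difference of 45.1-fold, where the ratio of mean CPM was 28.9. Microglia-like cells held 2542, 2161, 1556, 4719 and 1725 CPM, and mature oligodendrocyte-like cells were above them by a log2 fold change of 1.97 ± 0.41 (edgeR adjusted p = 1.2e-05).

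In astrocyte-like cells Fth1 stood at 960, 1116, 852, 1491 and 1396 CPM. Microglia-like cells were higher by a log2 fold change of 1.14 ± 0.35 (edgeR adjusted p = 0.00513), though the lowest of their values, 1556 CPM, was close to the highest astrocyte-like value. With possible doublets left out the call was lost (0.66, edgeR adjusted p = 0.293; 0.000416 to 0.293 over the alternatives). The 4719 CPM of experiment 4 came with 18018 CPM of microglia markers, against 35569 to 48421 in the other 4 experiments; the part of this in the result was not tested. Fth1 was lower than in astrocyte-like cells both in precursor-like cells (-2.39 ± 0.40, edgeR adjusted p = 4.6e-08) and in neuroblast-like cells (362, 555, 530 and 194 CPM in experiments 1, 2, 4 and 5; -2.05 ± 0.43, edgeR adjusted p = 2.5e-05). In both pairs the groups did not overlap. The endothelial-like values, 878 and 1067 CPM, lay within the astrocyte-like range.

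Ftl1, the light chain, had another order. Microglia-like cells held 2012, 2470, 2810, 3742 and 2806 CPM and astrocyte-like cells 216, 371, 584, 721 and 394. The log2 fold change was 2.72 ± 0.37 (edgeR adjusted p = 1.6e-12). Mature oligodendrocyte-like cells held 811, 805 and 1687 CPM, below all microglia-like values (-1.56 ± 0.43, edgeR adjusted p = 0.00209). Against precursor-like cells (548 to 1089 CPM), where Fth1 passed the test, Ftl1 did not pass the test (0.88 ± 0.43, edgeR adjusted p = 0.154). Neuroblast-like cells held 1041, 1271, 1193 and 2324 CPM, each above every astrocyte-like value. Their fitted difference from astrocyte-like cells, 0.88 ± 0.40, missed the threshold (edgeR adjusted p = 0.0893). It was called in 5 of 17 alternatives (adjusted p = 0.000976 to 0.544). The highest neuroblast-like value, on 12 counts in 5 cells, lay within the microglia-like range, and that pair was not tested.

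The ratio of the chains puts these orders together. Fth1 counts per Ftl1 count were 11.2, 11.7 and 6.00 in mature oligodendrocyte-like cells of experiments 1, 3 and 5. Precursor-like cells had 0.531, 0.523, 0.333, 0.618 and 0.171 and microglia-like cells 1.26, 0.874, 0.552, 1.26 and 0.615 in experiments 1 to 5. Heavy chain counts thus outnumbered light chain counts in every mature sum of the niche and were fewer in every niche precursor sum. The Nestin-GFP precursor sum had a ratio of 1.25. Astrocyte-like cells had 1.46 to 4.47, the Hopx-led cluster 1.22 to 2.50, proliferating cells 0.430 to 0.60 and neuroblast-like cells 0.0833 to 0.443, the lowest of these on 1 and 12 counts. Within experiments the log2 ratio of mature oligodendrocyte-like cells was above that of precursor-like cells by 4.89 ± 0.42 (SD, n = 3) and above that of microglia-like cells by 3.61 ± 0.69 (SD, n = 3). Both differences had the same sign in 3 of 3 experiments, where an exact two-sided sign-flip permutation test cannot go below p = 0.250, the value it gave for each. The precursor-like ratio of experiment 3 rests on 2 Fth1 and 6 Ftl1 counts, and that of experiment 5 on 6 and 35. Microglia-like cells differed from astrocyte-like cells by -1.65 ± 0.66 (SD, n = 5, lower in 5 of 5 experiments; exact permutation p = 0.0625, the smallest that 5 experiments allow, and 0.188 adjusted over the 3 comparisons).

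**Figure D4:**
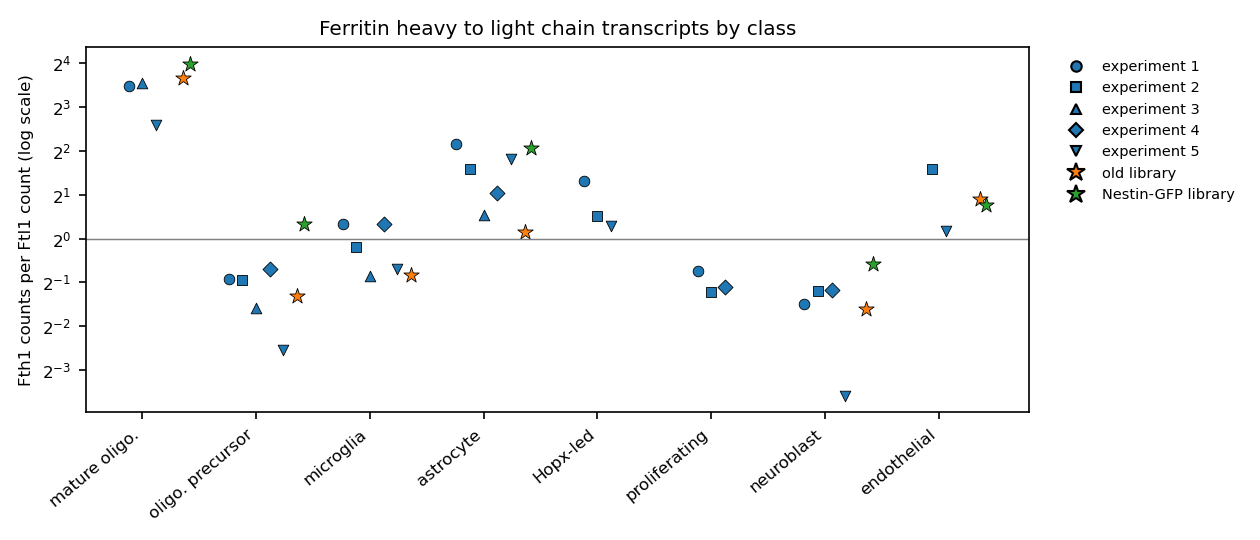
Fth1 counts per Ftl1 count (log scale) by class; blue points are niche experiments, stars the old and Nestin-GFP libraries, and the line marks equal counts. The mature oligodendrocyte-like points lie between 6.00 and 11.7, and all precursor-like niche points lie under 1.

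Processed copies of both ferritin genes are annotated in the mouse genome, and no row of the tables is named for one. How reads that fit both a gene and a copy were counted is not stated in the labels, so Fth1 and Ftl1 counts may include or lack such reads. The ratio of the chains is therefore best read between classes, not as an absolute number of transcripts. The saturation correction had added 16.6% to Fth1 in mature oligodendrocyte-like cells of the niche and 9.04% in microglia-like cells.

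Slc40a1, the iron exporter, was found mainly in endothelial-like and microglia-like cells. Endothelial-like cells held 1262 CPM in experiment 2 and 474 in experiment 5, on 30.3 and 4.00 counts. Microglia-like cells held 167, 169, 132, 58 and 244 CPM in experiments 1 to 5, and astrocyte-like cells 0, 46.3, 8.16, 8.88 and 32.8. Microglia-like cells were above astrocyte-like cells in all experiments by a log2 fold change of 3.16 ± 0.55 (edgeR adjusted p = 1.1e-07). Endothelial-like cells were above astrocyte-like cells by 4.56 ± 0.70 (edgeR adjusted p = 7.2e-09). This call rests on experiment 2: without it the value was 3.31 (adjusted p = 0.188), and DESeq2 gave 4.46 (adjusted p = 0.0562), where the range over all alternatives was 5.7e-13 to 0.188.

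In the tested UMIs no Slc40a1 count was found in mature oligodendrocyte-like, neuroblast-like or proliferating cells. With the UMIs used for clustering included, these classes held 1, 2 and 3 Slc40a1 UMIs. The level in mature oligodendrocyte-like cells was at least 9.59-fold lower than in microglia-like cells, taking 3 counts over the group as the floor (edgeR adjusted p = 3.7e-07). In neuroblast-like cells it was at least 4.35-fold lower than in astrocyte-like cells by the same floor (edgeR adjusted p = 0.00324), but that call rests on 7.01 astrocyte counts and was lost without experiment 2 (adjusted p = 0.154) and with DESeq2 (adjusted p = 0.175; 0.00162 to 0.175 over the alternatives). After thinning, 50 of 296 microglia-like cells (16.9%, 12.8% to 21.7%; 42.2% without thinning) and 11 of 27 endothelial-like cells (40.7%, 22.4% to 61.2%; 59.3% without) held a UMI. None of 66 mature oligodendrocyte-like cells did (1.52% without thinning), which by 3 counts allows a share of cells with a UMI at that depth of up to 4.55%, and none of 162 neuroblast-like cells (1.23% without thinning), which allows 1.85%. Of 50 proliferating cells none did after thinning (6.00% without thinning), which allows 6.00%. Without thinning the share was 3.11% in astrocyte-like and 4.18% in precursor-like cells.

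Cp, the oxidase that works beside ferroportin, had its highest mean in precursor-like cells, at 151, 90.9, 362, 69.3 and 95.8 CPM in experiments 1 to 5, in experiment 3 on 2 counts. Endothelial-like cells overlapped with them, at 41.8 and 118 CPM on 1 count each. Astrocyte-like cells held 0, 0, 8.16, 17.8 and 16.4 CPM on 4.01 counts. All precursor-like values were above these (log2 fold change 3.14 ± 0.68, edgeR adjusted p = 5.8e-05). With possible doublets left out the call was lost (3.25, edgeR adjusted p = 0.0739), in a setting that kept 41 of 354 precursor-like cells of all libraries. It held in 15 of 16 alternatives (adjusted p = 1.9e-10 to 0.0739). Mature oligodendrocyte-like cells held 31.2, 0 and 0 CPM and were called lower than precursor-like cells (log2 fold change -2.23 ± 0.80, edgeR adjusted p = 0.0342). That call held in 7 of 16 alternatives and was lost without each of experiments 1, 2, 3 and 5 (adjusted p over the alternatives 0.000330 to 0.455; log2 fold change -6.13 without experiment 1). After thinning, 29 of 263 precursor-like cells held a Cp UMI (exact 95% interval 7.51% to 15.5%; 46.0% without). The share was 0.897% in astrocyte-like (3.56% without) and 0.338% in microglia-like cells (2.70% without).

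Small classes present in 1 experiment each are given with intervals for counting error and no test. The 12 fibroblast-like cells of experiment 4 held 1850 CPM of Cp (95% Poisson interval 1507 to 2248) and 1817 of Trf (1477 to 2211), with no Slc40a1 count. The 5 mural-like cells of experiment 2, vessel wall cells, held 478 CPM of Cp (155 to 1116) on 5.00 counts. The 7 cells led by haemoglobin genes in experiment 3 held 4291 CPM of Ftl1 (2765 to 6355) and 1773 of Fth1 (856 to 3246).

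Across the 33 sums of a class in a niche experiment (11 classes), the members did not rise and fall as 1 group. Fth1 and Trf had a Spearman rho of 0.59 and Ftl1 and Tfrc one of -0.53, and all other pairs lay between -0.20 and 0.34. The genes most like each member over these sums were Rhog (0.87), Tmem63a (0.76) and Unc93b1 (0.75) for Trf, and Anapc16 (0.80), Man2c1 (0.69) and Mink1 (0.69) for Tfrc. For Fth1 they were Tmem63a (0.72), Sepp1 (0.71) and Rhoa (0.70), and for Ftl1 Rpl10 (0.69), Rpl39 (0.67) and Rps29 (0.66). Casp8 (0.77), Hhex (0.76) and Ctsc (0.76) were nearest to Slc40a1, and Igfbp7 (0.79), Rhbdf1 (0.74) and Sepn1 (0.72) to Cp. These sums share experiments and differ in depth, so the values are a description.

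Other genes of iron and haem handling were taken from a list of 56, of which 48 have a row and 30 were tested. The counts called are given beside the share of all genes called, and a count near that share says nothing about the list. In mature oligodendrocyte-like against precursor-like cells 3 were higher and 3 lower of 30 (all genes 16.8%; median log2 fold change -0.18, against -0.28 over all genes). Slc48a1, which carries haem out of endosomes and lysosomes, stood at 1729 ± 624 CPM (SD, n = 3) against 122 ± 48.7 (SD, n = 5), a log2 fold change of 4.2 ± 0.45 (edgeR adjusted p = 1.0e-18). Lrp1, an endocytic receptor that among other ligands takes up haem bound to haemopexin, stood at 13 ± 22.5 CPM against 1245 ± 467 (-5.11 ± 0.66, edgeR adjusted p = 7.9e-13). Slc22a17, a receptor of the siderophore-binding lipocalin Lcn2, was lower (215 ± 44.5 against 1024 ± 191 CPM), and Hmox2, a haem oxygenase (113 ± 61.7 against 22.8 ± 17.1), and Fbxl5, an iron-sensing subunit of a ubiquitin ligase for an iron regulatory protein (309 ± 245 against 90.6 ± 60.2), were higher. The metalloreductase gene Steap2 had no count in the mature cells and 69.8 ± 44.5 CPM in precursor-like cells (edgeR adjusted p = 0.0101).

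In microglia-like against astrocyte-like cells 5 of 30 list genes were higher and 4 lower (all genes 36.0%; median log2 fold change 0.09, against -0.09 over all genes). Hfe, the haemochromatosis gene whose product binds the transferrin receptor, stood at 134 ± 48.2 CPM against 20.8 ± 33.5 (SD, n = 5 each; log2 fold change 2.72 ± 0.55, edgeR adjusted p = 6.2e-06). Slc25a37, which brings iron into mitochondria, stood at 165 ± 68.5 against 40.1 ± 19.1 CPM, and Hmox1, the inducible haem oxygenase, at 74 ± 50.4 against 12.8 ± 18.4; both were called higher. Slc22a17 (58.9 ± 39.4 against 422 ± 74.7 CPM), Slc48a1 (19.4 ± 17.8 against 188 ± 24.9) and the mitochondrial transporter Abcb8 (11.7 ± 6.76 against 88.3 ± 43.2) were lower. Mature oligodendrocyte-like against microglia-like cells had 4 of 30 list genes higher and 6 lower (all genes 25.5%; median log2 fold change -0.42, against -0.26 over all genes). Slc48a1 differed most there (5.69 ± 0.48, edgeR adjusted p = 4.5e-30), with Abcb8 also higher (2.91 ± 0.70). Lrp1 (-4.54 ± 0.66), Slc25a37 (-4.69 ± 0.94), Hfe (-4.76, edgeR adjusted p = 2.2e-05) and Slc46a1, a transporter of folate and haem (-3.13 ± 0.91), were lower.

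Neuroblast-like cells had 0 of 30 list genes higher and 9 lower than astrocyte-like cells (all genes 24.9%; median log2 fold change -0.91, against -0.07 over all genes). Among them were Slc46a1 (1.79 ± 2.14 against 84.1 ± 30 CPM, SD, n = 4 and 5), Lrp1 (209 ± 122 against 343 ± 28.3), Slc48a1 (69 ± 50.7 against 188 ± 24.9) and Slc22a17 (250 ± 179 against 422 ± 74.7). Hfe (0.735 ± 1.47 against 20.8 ± 33.5 CPM) and Blvrb, a biliverdin reductase (4.00 ± 5.55 against 30.9 ± 31.1), were lower as well, on few counts. Precursor-like cells had 1 of 30 higher, Lrp1 (1.33 ± 0.35, edgeR adjusted p = 0.00138), and 2 lower, Slc46a1 (-2.54 ± 0.60) and Slc48a1 (-1.27 ± 0.42), than astrocyte-like cells (all genes 19.1%). Both genes called lower had overlapping groups. Slc46a1 stood at 0 to 181 CPM in precursor-like and 35.5 to 115 in astrocyte-like cells, and Slc48a1 at 71.9 to 181 against 154 to 213. In endothelial-like cells 1 was higher, Slc39a8, a metal importer that can carry iron (303 ± 74.7 CPM, n = 2, against 1.78 ± 3.97, n = 5; log2 fold change 4.70 ± 1.18, edgeR adjusted p = 0.00140). Lrp1 (41.6 ± 58.9 CPM), Slc22a17 (125 ± 177) and Abcb8 (no count) were called lower there, where 11.6% of all genes were called. The floor of 3 counts over the endothelial-like sums was 92.4 CPM. Lrp1 lay under it, against 343 ± 28.3 CPM in astrocyte-like cells, and Slc22a17 ran from 0 to 250 CPM. The astrocyte-like mean of Abcb8, 88.3 CPM, was itself under that floor, so the lack of a count does not establish a lower level. The median over the list was -0.02 in precursor-like and -0.85 in endothelial-like cells, against 0.01 and -0.97 over all genes. No list gene was called in the Hopx-led cluster (all genes 2.04%, median -0.42 against -0.27).

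The library of mice older than 12 months was compared with the niche experiments in microglia-like cells, the class it held most of (48 cells). Trf stood at 648 CPM in old cells (552 to 854 in the 5 niche experiments), Fth1 at 1999 (1556 to 4719), Ftl1 at 3550 (2012 to 3742) and Slc40a1 at 188 (58 to 244). Each old value lay within the niche range. Of 3805 genes 0 (0%) were called with edgeR, 105 had an unadjusted p under 0.05, and DESeq2 called 0. The log2 differences were -0.19 ± 0.54 for Trf, -0.28 ± 0.71 for Fth1, 0.41 ± 0.57 for Ftl1 and 0.35 ± 0.68 for Slc40a1 (SE). For each gene 2 standard errors were thus larger than a 2-fold change. That describes how large a difference had to be to stand out from 0, and is not a range around each estimate. Tfrc and Cp had too few counts to be tested. With 1 old library, age cannot be told apart from its sort and sequencing run, and 47 of its 48 cells lay in a cluster that held 43 of the 296 niche cells. Its 5 mature oligodendrocyte-like cells held 5801 CPM of Trf and 9701 of Fth1, and its 21 precursor-like cells 319 CPM each of Fth1 and Cp, with Fth1 to Ftl1 ratios of 12.6 and 0.406.

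In the Nestin-GFP library, 90 mature oligodendrocyte-like cells held 6781 CPM of Trf, within the niche range, and 12331 CPM of Fth1, above all 3 niche experiments, with an Fth1 to Ftl1 ratio of 15.9. Neither passed the test (log2 difference 0.12 ± 0.50 for Trf and 0.53 ± 0.49 for Fth1, edgeR adjusted p of 1 for each), where 0.640% of 2812 genes were called. The library's 4096 possible UMIs per gene left little to correct, since the saturation correction added 1.38% to Fth1 against 16.6% in niche cells, where most libraries had a pool of 256. Of these cells 85 lay in a cluster with 2 niche cells, and 64 of 66 niche cells in another.

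Precursor-like cells of the Nestin-GFP library (70 cells) held 108 CPM of Trf, above the 0 to 71.9 of the niche, and 751 CPM of Fth1, above 144 to 490. The log2 differences of 2.08 ± 0.76 and 1.38 ± 0.57 (SE) had an unadjusted edgeR p of 0.00603 and 0.0156 and an adjusted p of 0.614 and 1, where 0.227% of 6604 genes were called. Astrocyte-like cells (92 cells) likewise held 108 CPM of Trf against 15.4 to 49.2 and 1634 CPM of Fth1 against 852 to 1491, and neither passed the test (edgeR adjusted p = 0.999 each; 0.0271% of 3692 genes called). Markers of mature oligodendrocytes were also higher in these astrocyte-like cells (2721 CPM against 364 to 771 in the niche), while in the precursor-like cells they lay within the niche range (2617 CPM against 1076 to 3390). They were higher in other classes of that library as well, at 2476 CPM in neuroblast-like cells (0 to 206 in the niche), whose Trf was 140 CPM (0 to 121). Trf counts per marker count were 0.0397 and 0.0414, where mature oligodendrocyte-like cells of the same library had 0.165. The part of these markers in the values was not tested. Of the precursor-like cells 67 of 70 shared a cluster with 79 of 263 niche cells, and 62 of the astrocyte-like cells shared one with 12 of 225.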

How the data were processed

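The deposited values are estimated counts, with UMI saturation corrected by the authors before deposit. The submitters' processing notes name BWA 0.6.2-r126 and the build mm10; no counting tool or annotation was found in the labels. When the correction was undone, 99.33% to 100.0% of a library's values came within 0.05 of a whole UMI number, with a pool of 256 or 4096 UMIs, while the labels state a UMI of 4 bases. Wells with at least 1000 transcripts, without spike-ins and mitochondrial genes, were kept (1738 of 4608 wells, 10020604 transcripts; 450994 to 2565578 per niche experiment). Each cell's UMIs were divided at random into 2 sets. The first set was clustered with scanpy 1.11.5 (2000 variable genes, 30 principal components, 15 neighbours, Leiden resolution 1.0, clusters of astrocyte, stem cell and progenitor cells once more). Clusters were named from 15 marker sets with a score of at least 0.5 and at least 3 markers in at least 10 percent of cells, and 166 cells stayed unnamed. No doublet caller was run; 1 alternative left out cells in which at least 3 markers of another, unrelated class were seen.

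From the other set, the values were added up by class and experiment, rounded and tested with edgeR 4.0.16 (TMM, filterByExpr, quasi-likelihood, Benjamini-Hochberg). All classes entered 1 fit with the experiment as a block, since classes of an experiment come from the same set of sorted plates. Plate was not in the fit, and experiment 2 joined plates with pools of 256 and 4096 UMIs. The old and Nestin-GFP libraries, 1 sample each, were compared with the niche experiments class by class. DESeq2 1.42.0 was an alternative. The script was tested on simulated counts. The 6 members were named in every comparison, with up to 6 genes of the iron and haem list by smallest adjusted p, and the 3 genes with the highest Spearman rho per member. Members and lists were chosen with earlier results of these data known. The alternative that required 2 UMIs per marker was chosen after seeing the data. Sequences and positions come from GENCODE M21. Of the mature oligodendrocyte markers, 1 is not reported here and was left out of the summed marker levels set beside Trf.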

Additional observations from a re-analysis of the deposited data

Results flagged for a closer look

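In 23 groups of 4 or 5 niche experiments looked at, 1 value stood apart from the others. Cp in precursor-like cells of experiment 3 was 362 CPM, where the other 4 experiments ran from 69.3 to 151. It rests on 2 counts in 7 cells. Chance alone would set apart about 1 in 20 such groups.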

How the results depend on the processing

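Of 20 calls of a member in a comparison, all kept their direction under 333 alternative values, of which 308 stayed called and 25 did not. Of 39 results that were not called, 10 of 591 alternative values were. The number of members called in mature oligodendrocyte-like against precursor-like cells (3) became 5 with all counts tested. The fit of the 2 classes alone called 3 in place of 5 in microglia-like against astrocyte-like and in mature oligodendrocyte-like against microglia-like cells, where 3 members passed its low-count filter. With possible doublets left out, which removed 801 of 1738 cells, 1 member was called in precursor-like (3 before) and 1 in neuroblast-like against astrocyte-like cells (2 before); Fth1 in microglia-like against astrocyte-like cells then had a log2 fold change of 0.66 (adjusted p = 0.293, over the alternatives 0.000416 to 0.293). DESeq2 called 1 in place of 2 in neuroblast-like and in endothelial-like against astrocyte-like cells. Leaving out each experiment gave 1 to 2 in both of these pairs. The fit without the replicate block changed 1 call of a member, Tfrc in precursor-like against astrocyte-like cells (-1.26, adjusted p = 0.0850). The ferritin ratio of mature oligodendrocyte-like against precursor-like cells (4.89) was 4.27 with a second random division and 4.34 with at least 2000 transcripts. DESeq2's scaling moved the median of all genes by -0.30 in the Hopx-led, -0.29 in the endothelial-like and 0.37 in the Nestin-GFP mature oligodendrocyte comparison. Among all genes, the calls in mature oligodendrocyte-like against precursor-like cells (1370) ran from 431 without experiment 1 to 2192 with all counts, in microglia-like against astrocyte-like cells (2938) from 1253 to 4021 and in mature oligodendrocyte-like against microglia-like cells (2087) from 830 to 3121. They ran from 495 to 2499 in precursor-like (1561), 639 to 3435 in neuroblast-like (2036), 14 to 339 in Hopx-led (167) and 229 to 1510 in endothelial-like against astrocyte-like cells (950). Without a low-count filter 35 genes were called in old against niche microglia-like cells (0 with it) and 106 in the Nestin-GFP astrocyte comparison (1 with it); calls ran from 2 to 64 in the Nestin-GFP mature oligodendrocyte (18) and 1 to 25 in the precursor comparison (15). Depth limits the members with few counts, such as Slc40a1 and Cp with 7.01 and 4.01 in astrocyte-like cells.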

Other observations

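Cells left without a class name also carried the members. In a cluster of 61 cells led by Rorb and Vmn2r55, with C1qb and C1qc of microglia among its top genes, Trf stood at 417 CPM (95% Poisson interval 275 to 606, counting error only) and Ftl1 at 1352 (1085 to 1665). A cluster of 56 cells led by H2-K1 and ribosomal genes held 22.8 CPM of Trf (4.71 to 66.6) and 986 of Fth1 (824 to 1171). A cluster of 49 cells, 42 of them from experiment 3, held 13.6 CPM of Trf (1.66 to 49.2) and 95.7 of Tfrc (52.4 to 160).

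Cell-to-cell relations were computed for 2 pairs of members, in classes with many cells. Among 49 mature oligodendrocyte-like cells of experiment 1, Trf and Fth1 per transcript had a Spearman rho of 0.20, and among 90 of the Nestin-GFP library 0.33. Fth1 and Ftl1 had 0.10 and -0.13. In microglia-like cells of experiments 1, 2 and 5 and of the old library, Fth1 and Ftl1 had 0.20, 0.22, 0.27 and -0.01. Trf and Fth1 had -0.03, 0.26, 0.04 and 0.04 in the same libraries. These are descriptions of cells that share a library, and weak values in sparse counts are no finding.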
